A study of Homo sapiens with 8 samples.

Results

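The 10 genes described here encode tropomyosins and proteins of the contractile actin filament: TPM1, TPM2, TPM3 and TPM4, the actin genes ACTB and ACTG1, the α-actinin genes ACTN1 and ACTN4, the transgelin gene TAGLN2 and the myosin light chain gene MYL9. They were taken wherever the deposited table of either cell line listed them. All 10 were listed in both lines, out of 12715 genes listed in at least 1 line. A gene was listed in a line when its mean value in that line's DMSO libraries was above 1. The rule itself used no other measured value, but it was set with earlier results of these data known. The member nearest to that limit was TPM2 in BCPAP, at a mean of 7.65 under DMSO, and no member lay outside it.

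Poly(A)-selected RNA was sequenced from CAL-62 and BCPAP, established human cell lines that the labels both describe as anaplastic thyroid carcinoma. The question was what THZ1 does to gene expression in them. THZ1 binds CDK7 covalently and inhibits it, and CDK7 is the TFIIH subunit that phosphorylates RNA polymerase II as transcription starts. The 4 groups were CAL-62 with THZ1 at 100 nM for 6 h, CAL-62 with the vehicle DMSO, BCPAP with the same THZ1 treatment, and BCPAP with DMSO, with 2 libraries in each. CAL-62 was kept in DMEM and BCPAP in an RPMI medium, with unequal serum, so a difference between lines and one between media cannot be told apart, and each is a single cell line. No label says that the 2 libraries of a group came from separate cultures, and p-values therefore measure how far these libraries differ, possibly for technical reasons.

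Values are in an RPKM-type unit, reads divided by gene length and by a library total, and the totals behind them follow size factors, so most genes are held near equal across a line's libraries. Levels of different genes are compared only in this unit, and changes are differences of log2(value + 1). Between 16681827 and 19988647 reads per library fell in listed genes, and the median gene had 399 to 730 reads. Of the marker lists, PAX8, NKX2-1 and FOXE1 were the only thyroid markers listed in BCPAP (3 of 7), and PAX8 alone in CAL-62, while TG, TSHR and SLC5A5 had no row in either line. Of 6 epithelial markers, the keratins KRT7, KRT8 and KRT18 were listed in both lines. KRT19 and EPCAM had a row in CAL-62 only, and CDH1 had none in either line. Of 11 muscle markers 0 were listed in CAL-62, and MYOCD alone in BCPAP. Of the fibroblast markers COL1A1 alone was listed, of the blood markers CD68 alone, and of 3 endothelial markers none. In CAL-62 the PAX8 value was 5.20 to 29.8 with THZ1 and 91.1 to 117 with DMSO, whereas the summed epithelial markers were 2277 to 2915 with THZ1 and 1360 to 1691 with DMSO. The epithelial markers changed by 0.42 (KRT19) to 1.03 (KRT8) there, beside a median of 0.82 for CAL-62 genes with a mean of at least 100. In BCPAP, PAX8 was also lower with THZ1 (30.8 and 42.5) than with DMSO (57.0 and 82.5). So was FOXE1 (5.03 and 6.05 against 10.2 and 14.4), while NKX2-1 overlapped. The part of these markers in the results below was not tested.

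Tropomyosins are coiled-coil proteins that polymerize head to tail along actin filaments and set which other proteins, myosin II among them, can bind. Each of the 4 genes yields several isoforms from alternative promoters and splicing. Non-muscle cells use long isoforms, mostly from TPM1 and TPM2, in stress fibres, and shorter ones from TPM3 and TPM4 in many filament populations. β-actin and γ-actin, the products of ACTB and ACTG1, build the filaments of non-muscle cells, which α-actinin cross-links into bundles and myosin II contracts. Many of these genes are classical targets of serum response factor, SRF, which binds a DNA element called the CArG box with cofactors (MKL1 and MKL2) that actin monomers hold in the cytoplasm.

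Because SRF sites are the best known regulatory element of this gene group, the members' promoters were read for a perfect CArG box in the 250 bases before each annotated start, using RefSeq promoters of build GRCh38.p14. The pattern reads the same on both strands, and no other motif was searched. Of the 10 members 8 had promoters in the table, with 18 starts, and ACTB and MYL9 are named only. A box was present at 3 of 18 starts, belonging to 3 of 8 genes, against 407 of 35116 promoters in all (1.16%). Among the genes of the 3 pathway lists described further on, 9 of 144 starts (6.25%) had one. The 60 bases around each member's box are printed here 5′ to 3′ on the gene's strand, with the box in capitals.
ACTG1: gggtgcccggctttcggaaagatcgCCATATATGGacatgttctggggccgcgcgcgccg
ACTN1: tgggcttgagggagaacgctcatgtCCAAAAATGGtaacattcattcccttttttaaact
TPM4: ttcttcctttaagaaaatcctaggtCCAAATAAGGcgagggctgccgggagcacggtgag
The ACTG1 stretch is chr17:81512859-81512918 on the minus strand, and its box begins 94 bases before the start. That of ACTN1 is chr14:68977703-68977762, also on the minus strand, with the box 171 bases before 1 of the gene's 4 annotated starts. The TPM4 stretch is chr19:16067340-16067399 on the plus strand, with the box 173 bases before 1 of 3 starts. A match describes the letters of this window and is not evidence of binding, and these RNA data do not show which start was used.

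Under DMSO, TPM2 and TPM1 set the lines apart in opposite directions, and TPM2 had the widest gap of the 10 members. TPM2, the gene of β-tropomyosin, had 386 and 350.1 in the CAL-62 DMSO libraries, against 7.64 and 7.65 in those of BCPAP. TPM1, the gene of α-tropomyosin, went the other way, with 52.7 and 58.0 in CAL-62 and 226 and 202 in BCPAP. Neither pair of groups overlapped. TPM2 was higher in CAL-62 by 5.41 on the log2 scale (SE 0.20), or 42.7-fold on the scale of value + 1 (limma adjusted p = 2.42e-05), and TPM1 was lower by a log2 difference of -1.93 (SE 0.22, limma adjusted p = 0.00253). In BCPAP the TPM2 values rested on 238 and 248 reads under DMSO, against 13128 and 12986 reads in CAL-62, so counting error was small at both levels. In bulk RNA, fewer cells with a transcript and less of it per cell cannot be told apart.

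TPM4, whose product is a short isoform of many non-muscle cells, had 300.2 and 191 in CAL-62 and 385 and 319 in BCPAP under DMSO. The 2 groups did not overlap, and the difference of -0.55 (SE 0.30) did not pass the test (limma adjusted p = 0.25). With replicate number as a block within each line, the limma adjusted p was 0.0186. That block pairs no CAL-62 library with a BCPAP library. It takes replicate spread out of the error that a comparison of lines needs, so this smaller p-value may be too small. TPM3, the remaining family member, had 46.3 and 36.0 in CAL-62 against 46.1 and 42.5 in BCPAP, with overlapping groups and a difference of -0.11 (95% interval -0.64 to 0.41). Its value per length is low because the length behind its values is 11179 bases, against 1574 to 3350 for the other 3 tropomyosin genes. In reads it was not minor: TPM3 held 11181 and 9479 reads in CAL-62 and 10201 and 9781 in BCPAP.

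Neither actin gene passed the test between the lines under DMSO. ACTB had 1618 and 1354 in CAL-62 against 1436 and 1642 in BCPAP, with overlapping groups and a difference of -0.05 (95% interval -0.79 to 0.69). ACTG1 had 1559 and 1602 in CAL-62 against 1980.0 and 2535 in BCPAP. These groups did not overlap, yet the difference of -0.50 (95% interval -1.27 to 0.26) did not pass (limma adjusted p = 0.336). Both intervals reach beyond 0.5 in size, so equal levels were not shown.

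Of the proteins that cross-link, bundle or pull the filaments, MYL9 and TAGLN2 differed between the lines. MYL9, the regulatory light chain through which kinases switch on non-muscle and smooth muscle myosin II, had 256 and 318 in CAL-62 and 53.3 and 90.9 in BCPAP under DMSO. That is a log2 difference of 2.02 (SE 0.43, limma adjusted p = 0.0224). TAGLN2, a small actin-bundling protein of the calponin family, had 238 and 175 in CAL-62 against 449 and 379 in BCPAP, a difference of -1.01 (SE 0.26, limma adjusted p = 0.0393). Both pairs of groups were apart. The α-actinin genes were closer: ACTN1 had 193 and 169.8 in CAL-62 against 234 and 216 in BCPAP (difference -0.31, SE 0.19, limma adjusted p = 0.307). ACTN4 had 324 and 273 in CAL-62 and 254 and 374 in BCPAP, overlapping (difference -0.05, SE 0.32, limma adjusted p = 0.937).

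Between the lines, then, 4 of 10 members were called, 2 higher in CAL-62 (TPM2 and MYL9) and 2 lower (TPM1 and TAGLN2). Over all 10653 genes in this comparison 14.1% were called, 6.32% higher and 7.81% lower. Libraries did not overlap for 2 members higher and 5 lower in CAL-62, while 33.3% of all genes did not overlap in each direction. The call of TPM2 was kept under all 19 alternatives. Of the other 3 calls, that of TPM1 was lost when libraries were scaled to mitochondrially encoded genes (limma adjusted p = 0.754), as was that of MYL9 (limma adjusted p = 0.255). Leaving out BCPAP DMSO replicate 1 or either CAL-62 DMSO library also ended the MYL9 call (limma adjusted p 0.12, 0.08 and 0.134), with differences of 1.64 to 2.17. TAGLN2 lost its call without any single DMSO library (limma adjusted p 0.0827 to 0.229), with ribosomal protein genes as the scale (limma adjusted p = 0.22) and with mitochondrially encoded genes (limma adjusted p = 0.957). The labels do not say whether the tables of the 2 lines were normalized together, but the totals behind the values were within 4.73% of size factors computed over both lines.

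**Figure D1:**
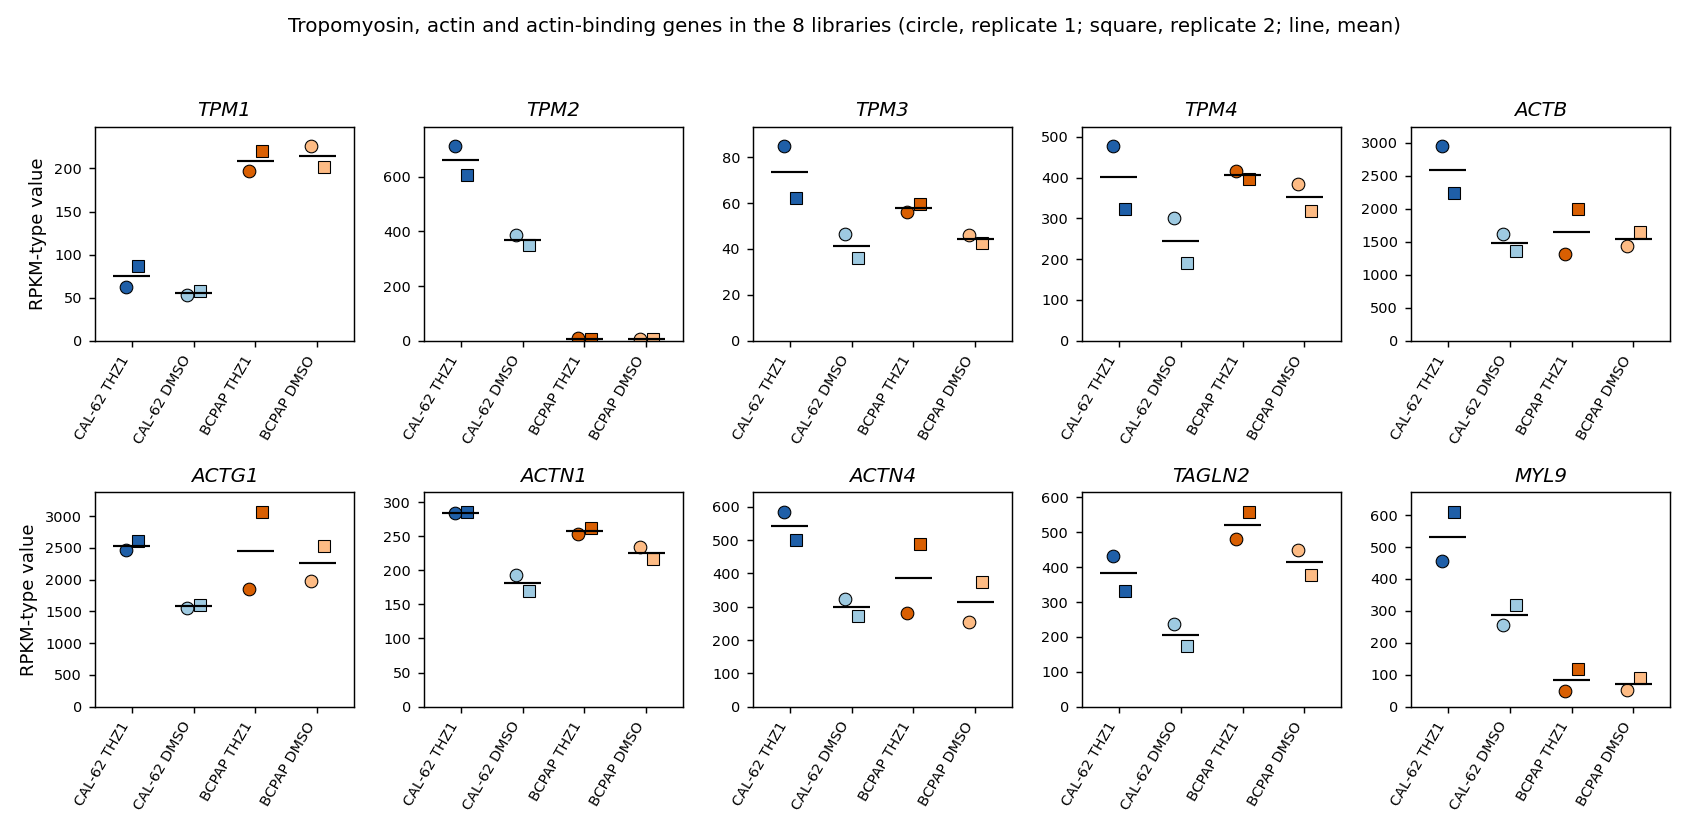
RPKM-type value (vertical axes, linear from 0) of each of the 10 genes in the 8 libraries, by group; circles are replicate 1, squares replicate 2 and lines the mean of 2 libraries. TPM2 reaches 350.1 or more in every CAL-62 library and stays at 8.89 or less in every BCPAP library. On this deposited scale all 10 genes have both CAL-62 THZ1 libraries above both CAL-62 DMSO libraries. That separation depends on the scale. With read sums the CAL-62 change of TPM1 is -0.010, and with ribosomal protein or mitochondrially encoded genes all 10 changes are negative.

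The order of levels per length reflects these differences. ACTG1 (1580.3 ± 30.1, SD, n = 2) and ACTB (1486 ± 187) led in CAL-62 under DMSO and overlapped. They were followed by TPM2 (368 ± 25.7), ACTN4 (299 ± 36.3), MYL9 (287 ± 43.8), TPM4 (246 ± 76.9), TAGLN2 (207 ± 44.8) and ACTN1 (181 ± 16.2), of which each neighbouring pair from ACTN4 to ACTN1 overlapped. TPM1 (55.3 ± 3.76) and TPM3 (41.2 ± 7.33) came last and were apart. In BCPAP under DMSO, ACTG1 (2257 ± 392) and ACTB (1539 ± 146) led without overlap, and TAGLN2 (414 ± 50.0), TPM4 (352 ± 46.6) and ACTN4 (314 ± 84.7) came next with overlapping neighbours. ACTN1 (225 ± 12.7) and TPM1 (214 ± 16.9) overlapped, and MYL9 (72.1 ± 26.6), TPM3 (44.3 ± 2.55) and TPM2 (7.65 ± 0.00954) closed the order, each apart from the next. Among all listed genes TPM2 stood at rank 119 of 11513 in CAL-62 and at rank 6772 of 11900 in BCPAP.

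Within a library, shares of the summed tropomyosin value do not depend on how libraries are scaled. TPM2 made up 53.3% and 56.2% of this sum in CAL-62 with THZ1 and 49.2% and 55.1% with DMSO. In BCPAP its share was 1.31% and 1.05% with THZ1 and 1.15% and 1.34% with DMSO. TPM1 took 4.67% and 8.06% in CAL-62 with THZ1 and 6.71% and 9.13% with DMSO. The same gene took 29.1% and 32.2% in BCPAP with THZ1 and 34.0% and 35.4% with DMSO. TPM4 was the leading tropomyosin of BCPAP, with 61.3% and 58.1% of the sum after THZ1 and 57.9% and 55.8% under DMSO. In CAL-62, where TPM2 led, TPM4 held 35.7% and 29.99% after THZ1 and 38.2% and 30.1% under DMSO. The make-up of the family thus parted the lines in every library. Between THZ1 and DMSO, the shares of TPM2 overlapped within each line. Those of TPM1, TPM3 and TPM4 overlapped in CAL-62 but were apart in BCPAP, lower with THZ1 for TPM1 and higher for TPM3 and TPM4. TPM3 held 8.3% and 8.7% in BCPAP with THZ1 and 6.9% and 7.4% with DMSO.

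**Figure D2:**
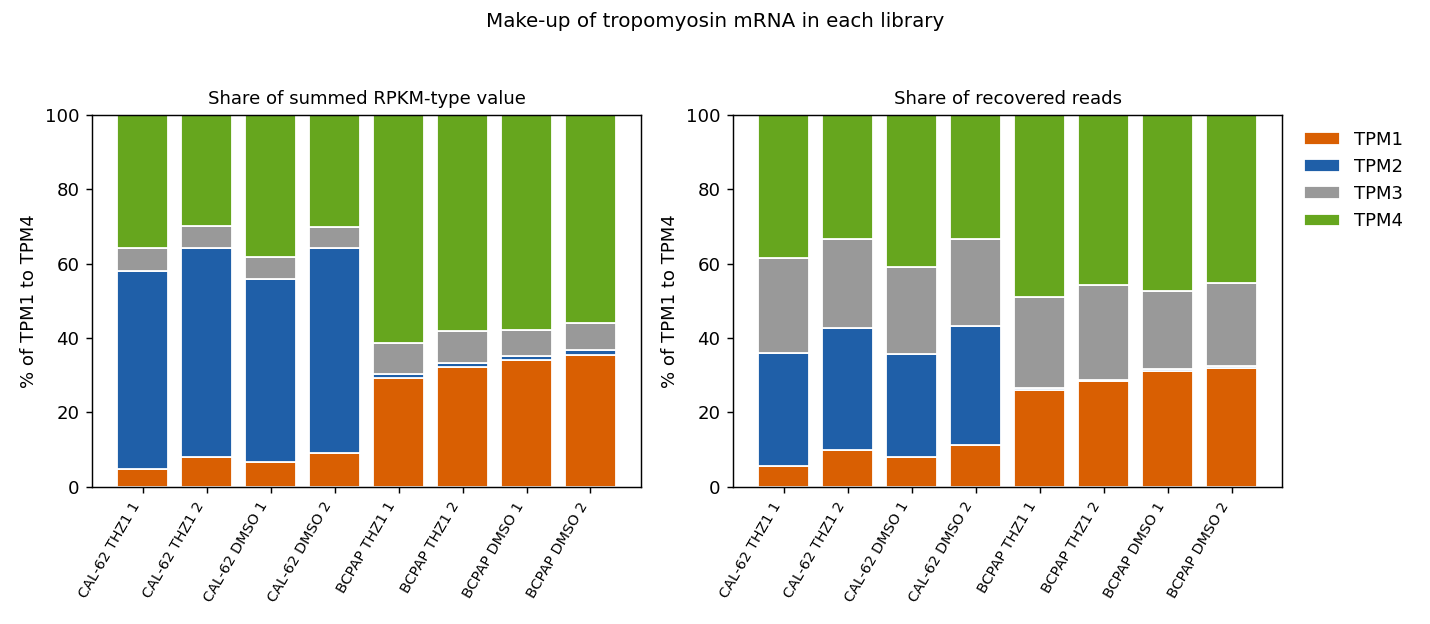
Share of TPM1, TPM2, TPM3 and TPM4 in each library, as % of their summed RPKM-type value (left) and as % of their recovered reads (right), for CAL-62 with THZ1 and DMSO and BCPAP with THZ1 and DMSO. TPM2 holds 49.2% to 56.2% of the summed value in the CAL-62 libraries and 1.05% to 1.34% in the BCPAP libraries; the share of TPM3 is larger in reads because its transcript model is long.

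Summed over the 4 genes, the tropomyosin value was 1338 and 1082 in CAL-62 with THZ1 and 786 and 636 with DMSO, without overlap. In BCPAP it was 678 and 684 with THZ1 and 665 and 571 with DMSO. The ratio of TPM2 to TPM1, 11.4 and 6.97 in CAL-62 with THZ1 and 7.34 and 6.04 with DMSO, overlapped between treatments. In BCPAP this ratio was 0.0450 and 0.0327 with THZ1 and 0.0338 and 0.0379 with DMSO.

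After 6 h of THZ1 the deposited values of all 10 genes were higher in CAL-62, by 0.41 (TPM1) to 0.89 (TAGLN2) on the log2 scale, but none passed the test, and all 10 were lower with ribosomal protein or mitochondrially encoded genes as the scale. Highly expressed genes as a whole had a median change of similar size. The call rate over all 11362 genes of this comparison was 4.62% (525 genes, 0.581% higher and 4.04% lower), against 0 of 10 members. At an unadjusted p under 0.05 there were 7 of 10 members, beside 30.1% of all genes and 68.3% of the 696 genes with a mean of at least 100 in CAL-62. The median of the members was 0.81, beside 0.03 for all tested genes and 0.82 for those 696 genes, of which 96.0% had a positive change. The 2 THZ1 libraries exceeded both DMSO libraries for 10 of 10 members, for 30.1% of all genes and for 83.5% of those with a mean of at least 100, where 8 of the 10 members lie. With replicate number fitted as a block, 9 of 10 members (all but TPM1) were called higher (limma adjusted p 0.00816 to 0.0253), as were 22.0% of all genes and 87.9% of those with a mean of at least 100, but no label says what a number marks. Compared within replicate number 1 and within number 2, the members' median was 0.84 and 0.77, with 10 of 10 positive in both.

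Of the tropomyosins, TPM2 came closest to the threshold. It had 713 and 608 in CAL-62 with THZ1 and 386 and 350.1 with DMSO, a change of 0.84 (95% interval 0.38 to 1.29, limma adjusted p = 0.0536). TPM3 had 84.9 and 62.3 with THZ1 and 46.3 and 36.0 with DMSO (0.82, 95% interval 0.29 to 1.34, limma adjusted p = 0.0716). The values of TPM4 were 478 and 324 with THZ1 and 300.2 and 191 with DMSO (0.71, 95% interval 0.03 to 1.40, limma adjusted p = 0.156). TPM1 showed the smallest change of the 10 genes, with 62.5 and 87.2 with THZ1 and 52.7 and 58.0 with DMSO (0.41, 95% interval -0.10 to 0.92, limma adjusted p = 0.25). TPM2 was called in 4 of 20 alternatives: with the replicate block, with limma-voom on reads recovered from the values, and without either BCPAP THZ1 library.

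The filament subunits followed the same pattern in CAL-62, with p-values here from the fit without the block. ACTB had 2951 and 2234 with THZ1 and 1618 and 1354 with DMSO, a change of 0.79 (95% interval 0.06 to 1.53, limma adjusted p = 0.146). ACTG1 had 2460.3 and 2610.3 with THZ1 and 1559 and 1602 with DMSO (0.68, 95% interval -0.09 to 1.45, limma adjusted p = 0.208). For ACTN1 and ACTN4, the cross-linkers, the THZ1 libraries were again above the DMSO libraries. ACTN1 had 283 and 286 with THZ1 and 193 and 169.8 with DMSO (0.65, SE 0.19, limma adjusted p = 0.0784). ACTN4 had 584 and 499 with THZ1 and 324 and 273 with DMSO (0.86, SE 0.32, limma adjusted p = 0.128). TAGLN2 had 433 and 332 with THZ1 and 238 and 175 with DMSO (0.89, SE 0.26, limma adjusted p = 0.0759), and MYL9 had 456 and 610.0 with THZ1 and 256 and 318 with DMSO (0.89, SE 0.43, limma adjusted p = 0.208).

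In BCPAP the members' changes after the same treatment were -0.04 (TPM1) to 0.38 (TPM3) on the deposited scale, with intervals that do not show equal levels. None of 10 was called with limma, where 0% of 11743 genes were called (471 genes and 0 members at an unadjusted p under 0.05, and 0 genes by limma-voom). The median member change was 0.17, beside 0.07 for all genes and 0.29 for the 602 genes with a mean of at least 100, and 9 of 10 were positive (5 with read sums, 3 with ribosomal protein genes and 0 with mitochondrially encoded genes as the scale). Within replicate number 1 the median was 0.10 with 6 positive, and within number 2 it was 0.30 with 9 positive. TPM3 had the largest change, with 56.2 and 59.4 with THZ1 and 46.1 and 42.5 with DMSO (0.38, 95% interval -0.15 to 0.90, limma adjusted p = 0.932). TPM1 had 197 and 220.2 with THZ1 and 226 and 202 with DMSO (-0.04, 95% interval -0.55 to 0.48), and TPM2 had 8.89 and 7.21 with THZ1 and 7.64 and 7.65 with DMSO (0.06, 95% interval -0.40 to 0.51).

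The BCPAP libraries of TPM3, TPM4, ACTN1 and TAGLN2 were apart, with THZ1 higher, so 4 of 10 members were apart in this direction, against 21.9% of all genes and 36.5% of the 602 with a mean of at least 100. TPM4 had 415 and 397 with THZ1 and 385 and 319 with DMSO (0.21, SE 0.30). ACTN1 had 253 and 262 with THZ1 and 234 and 216 with DMSO (0.19, SE 0.19). TAGLN2 had 481 and 558 with THZ1 and 449 and 379 with DMSO (0.33, SE 0.26). None of the 4 passed the test (limma adjusted p = 0.932 to 0.941).

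ACTB, ACTG1, ACTN4 and MYL9 differed more between the 2 BCPAP libraries of a treatment than between the treatments. ACTB had 1313 and 1992 with THZ1 and 1436 and 1642 with DMSO (0.08, SE 0.32). ACTG1 had 1845 and 3065 with THZ1 and 1980.0 and 2535 with DMSO (0.09, SE 0.33). ACTN4 had 283 and 489 with THZ1 and 254 and 374 with DMSO (0.27, SE 0.32), and MYL9 had 49.8 and 119 with THZ1 and 53.3 and 90.9 with DMSO (0.15, SE 0.43). In each of these genes replicate 2 was above replicate 1 under both treatments. Without BCPAP THZ1 replicate 2 the changes were -0.22 for ACTB, -0.28 for ACTG1, -0.12 for ACTN4 and -0.47 for MYL9. Without BCPAP DMSO replicate 1 they were also below 0, at -0.02 for ACTB, -0.09 for ACTG1, -0.01 for ACTN4 and -0.23 for MYL9. Both fits leave the replicate numbers unbalanced between the treatments. Within replicate number 1 the changes were -0.13 for ACTB, -0.10 for ACTG1, 0.15 for ACTN4 and -0.09 for MYL9. Within number 2 they were 0.28 for ACTB, 0.27 for ACTG1, 0.39 for ACTN4 and 0.39 for MYL9.

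**Figure D3:**
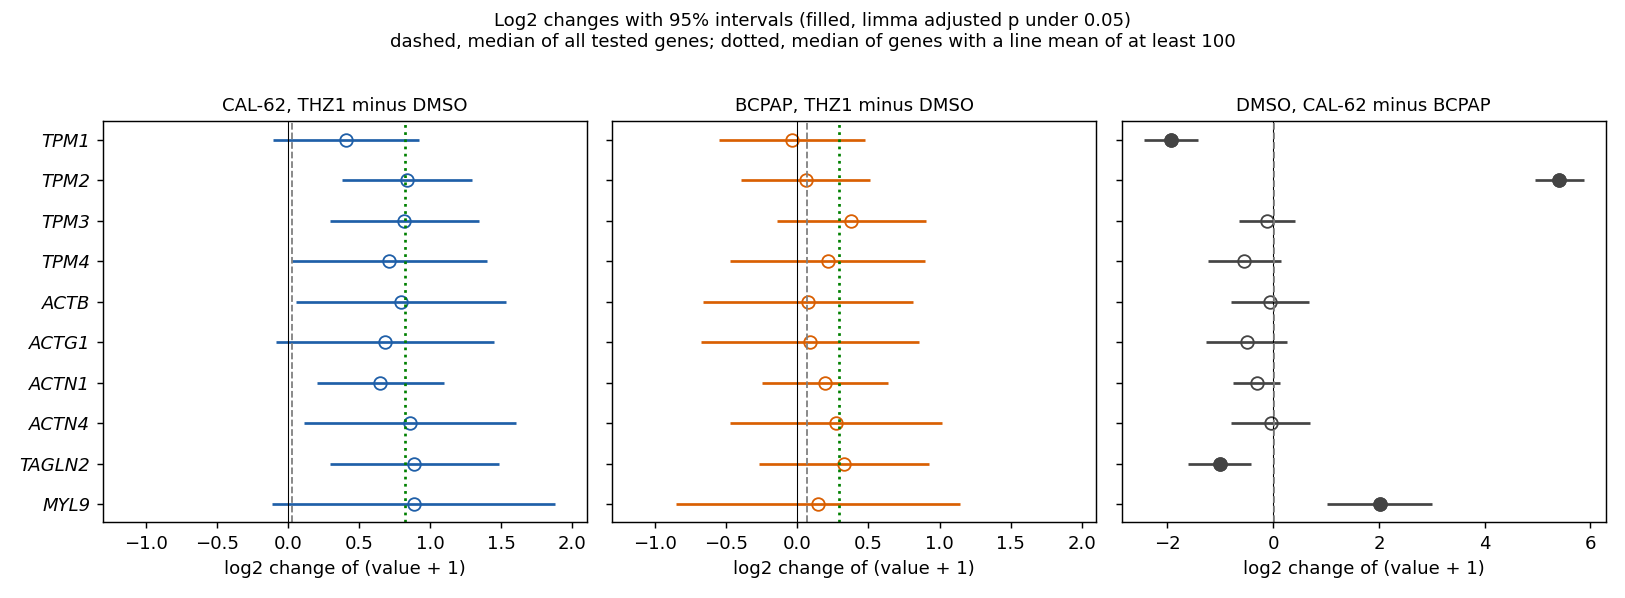
Log2 changes of value + 1 with 95% intervals (horizontal axes) for the 10 genes: THZ1 minus DMSO in CAL-62, THZ1 minus DMSO in BCPAP, and CAL-62 minus BCPAP under DMSO. Filled points passed a limma adjusted p of 0.05 (TPM1, TPM2, TAGLN2 and MYL9 between the lines, none after THZ1), dashed lines are the median of all tested genes, and dotted lines that of genes with a mean of at least 100.

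Whether the response differed between the lines was tested directly, as the CAL-62 change minus the BCPAP change. The difference was positive for all 10 members on the deposited scale, though for 2 with ribosomal protein genes and 3 with mitochondrially encoded genes as the scale. It was 0.44 (TPM3) to 0.78 (TPM2), with a median of 0.57 beside -0.01 for all genes and 0.51 for genes with a mean of at least 100. None was called, as was the case for 0% of all 10653 genes (562 genes at an unadjusted p under 0.05, and 0 called by limma-voom). For TPM2 the 95% interval was 0.14 to 1.42 (limma adjusted p = 0.844), and for ACTG1 it was -0.49 to 1.68. A different response of these genes in the 2 lines was therefore not shown. This difference and the comparison of the lines use the same DMSO libraries as the changes in each line, so they are not independent of them.

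How far a gene's value moved after THZ1 went with its level. Level here is the mean of a line's THZ1 and DMSO libraries, so a change also moves the level. Genes with a DMSO mean of 1 or less were not listed, which leaves out genes that rose from below that limit. In CAL-62 the median change was -0.23 for genes with a mean of 1 to 10, 0.26 for 10 to 100, 0.80 for 100 to 1000 and 0.97 for the 57 genes at 1000 or more. The BCPAP medians over the same ranges were -0.04, 0.13, 0.28 and 0.33. Of the CAL-62 members, TPM1 (0.41) and TPM3 (0.82), with means between 10 and 100, lay above the median of their range. The middle 50% of genes there had changes of -0.14 to 0.56, which held TPM1 and not TPM3. ACTB (0.79) and ACTG1 (0.68) lay below the median of the genes at 1000 or more, and also below their middle 50% (0.87 to 1.04). The other 6 members, with means between 100 and 1000, had changes of 0.65 to 0.89. The middle 50% of genes in that range had changes of 0.60 to 0.92, and all 6 members were inside it.

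**Figure D4:**
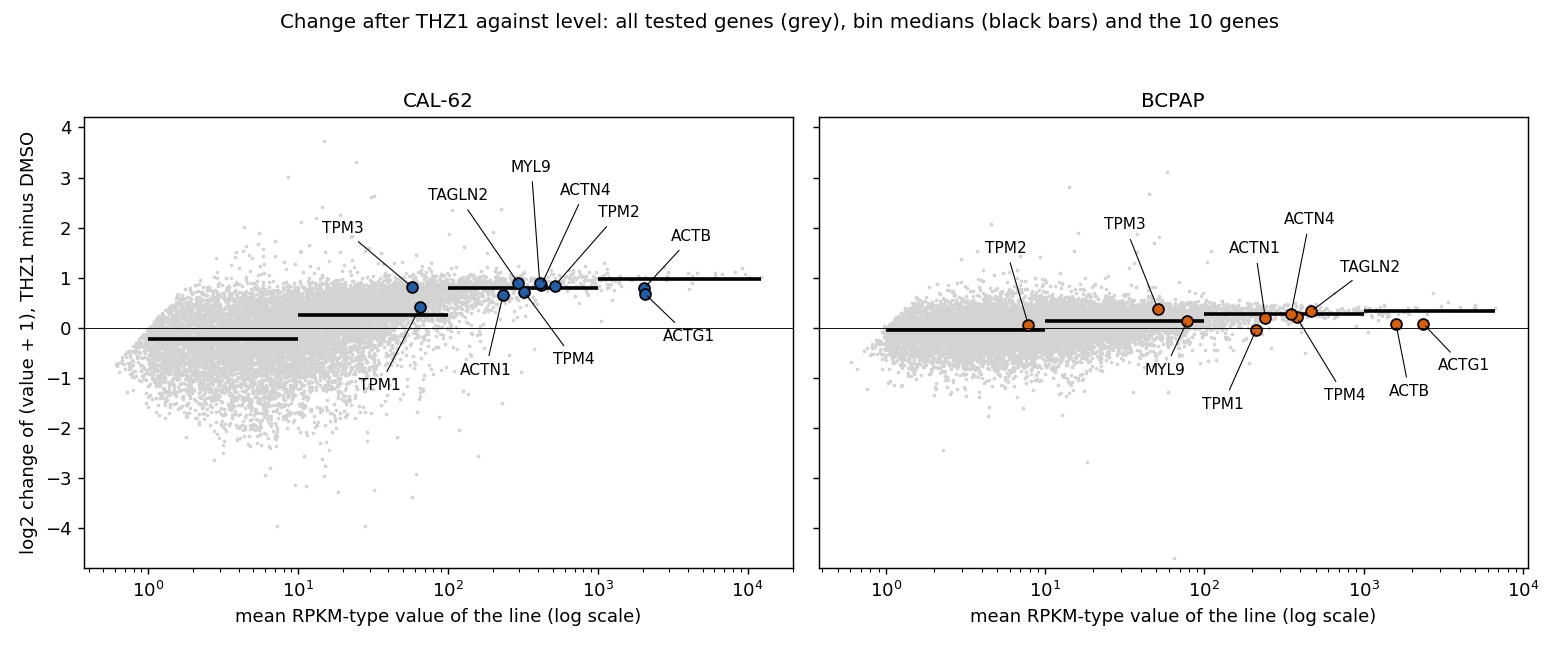
Log2 change of value + 1, THZ1 minus DMSO (vertical axis), against the mean RPKM-type value of the line (log axis) for all tested genes (grey), with the median of each level range (black bars) and the 10 genes (coloured points), in CAL-62 (left) and BCPAP (right). In CAL-62 the medians climb to 0.80 and 0.97 in the upper ranges, where 8 of the 10 genes lie.

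The direction after THZ1 depended on what the libraries were scaled to. With the sum of recovered reads as the scale, the median change of all genes in CAL-62 was -0.33 and that of the members 0.38, with 9 of 10 positive and TPM1 at -0.01. Scaled to 76 cytosolic ribosomal protein genes, all genes had a median of -0.78 and the members one of -0.16, with 0 of 10 positive. Scaled to 13 mitochondrially encoded genes, the medians were -0.85 for all genes and -0.25 for the members, again with 0 of 10 positive. Set against the all-gene median, the members stood 0.78 higher on the deposited scale, 0.71 with read sums, 0.63 with ribosomal protein genes and 0.60 with mitochondrially encoded genes. In BCPAP the members' median relative to all genes was 0.10 on the deposited scale and 0.06 to 0.10 under the scalings tried, and its sign on its own was negative with read sums (-0.01), ribosomal protein genes (-0.07) and mitochondrially encoded genes (-0.23).

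**Figure D5:**
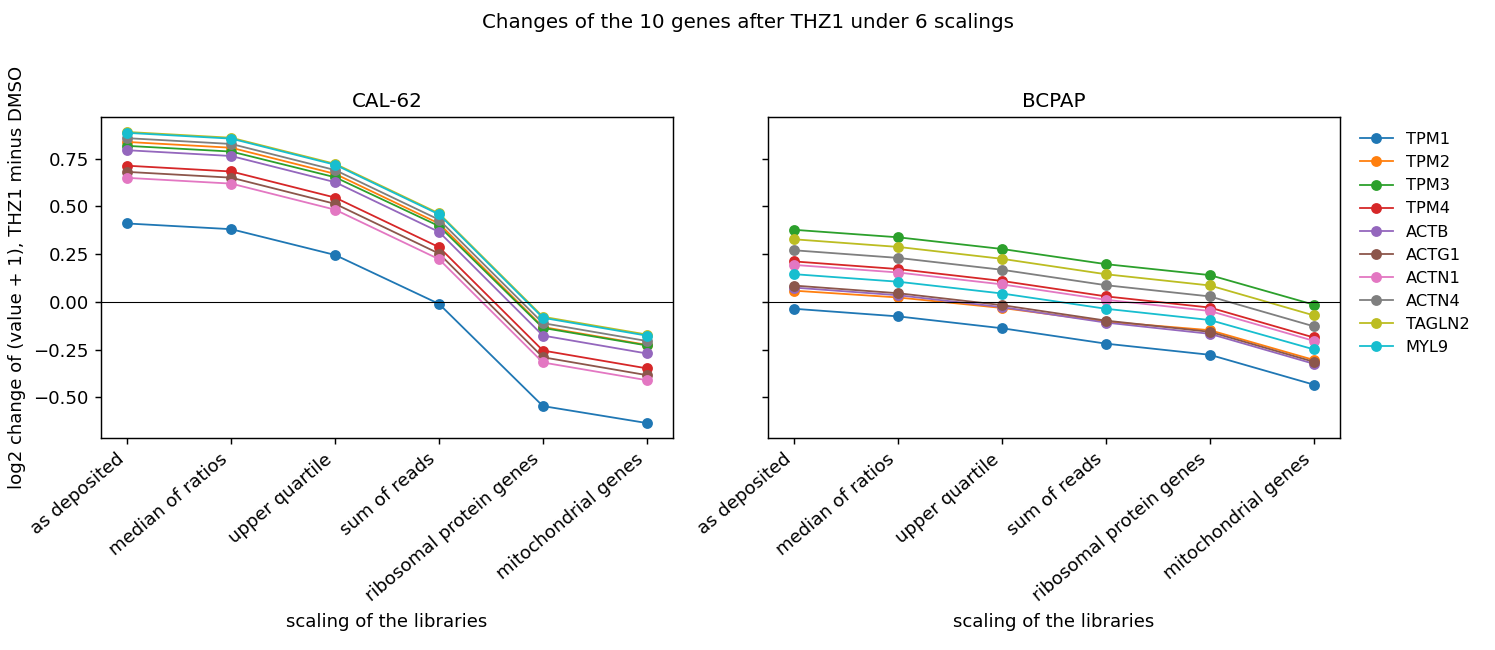
Log2 change of value + 1, THZ1 minus DMSO (vertical axis), of each of the 10 genes under 6 scalings of the libraries (horizontal axis), in CAL-62 (left) and BCPAP (right). In CAL-62 all 10 are positive on the deposited scale and all 10 negative when ribosomal protein or mitochondrially encoded genes set the scale.

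Most of the following ratios between members within a library, which no scaling alters, showed no separation by treatment. The BCPAP shares of TPM1, TPM3 and TPM4 given above did separate. The share of the reads in listed genes that fell in the 10 members is not such a ratio, because its reference is the sum of reads. This share was 1.55% and 1.56% in CAL-62 with THZ1 and 1.27% and 1.21% with DMSO, without overlap. In BCPAP it was 1.14% and 1.51% with THZ1 and 1.26% and 1.45% with DMSO. The ratio of ACTG1 to ACTB was 0.834 and 1.17 in CAL-62 with THZ1 and 0.964 and 1.18 with DMSO. In BCPAP it was higher than in any CAL-62 library, at 1.40 and 1.54 with THZ1 and 1.38 and 1.54 with DMSO. Summed actin over summed tropomyosin was 4.04 and 4.48 in CAL-62 with THZ1 and 4.04 and 4.65 with DMSO, and in BCPAP it was 4.66 and 7.39 with THZ1 and 5.14 and 7.31 with DMSO.

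Other ratios set the binding proteins against each other. ACTN4 over ACTN1 was 2.06 and 1.75 in CAL-62 with THZ1 and 1.68 and 1.61 with DMSO, apart, while in BCPAP it was 1.12 and 1.86 with THZ1 and 1.08 and 1.73 with DMSO. MYL9 over ACTB was 0.154 and 0.273 in CAL-62 with THZ1 and 0.158 and 0.235 with DMSO. In BCPAP this ratio was 0.0379 and 0.0598 with THZ1 and 0.0371 and 0.0554 with DMSO, below every CAL-62 library. With 2 libraries a group, an exact permutation test of such a ratio cannot pass 0.05, and none was run.

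Of 37 genes on a list of actomyosin and stress fibre components, 26 were listed and tested. None was called in CAL-62 after THZ1 (background 4.62%), with a median of 0.59 and 23 positive, and none in BCPAP (background 0%), with a median of 0.20 and 22 positive. The largest changes in CAL-62 belonged to the myosin essential light chains. MYL6 had 838 and 639 with THZ1 and 439 and 285 with DMSO (1.05, SE 0.29, limma adjusted p = 0.0711). MYL6B had 60.6 and 64.9 with THZ1 and 29.8 and 31.9 with DMSO (1.00, SE 0.32, limma adjusted p = 0.0919). In BCPAP they belonged to SYNPO, an α-actinin partner, at -0.57, and TMOD3, a cap of the filament's pointed end that binds tropomyosin, at 0.43 (limma adjusted p = 0.932 for both). SYNPO was near the listing limit there, with 1.18 and 1.53 with THZ1 and 1.76 and 3.41 with DMSO.

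Between the lines under DMSO, 8 of these 26 genes were called, 4 higher and 4 lower in CAL-62, beside 6.32% and 7.81% of all genes. Those named here were chosen after their values were seen. TAGLN (2.89), the smooth muscle transgelin, CALD1 (1.47), the caldesmon that works with tropomyosin, SMTN (1.19), a smoothelin, and FLNC (1.06), a filamin, were higher. LIMA1 (-4.29), which bundles actin, PDLIM5 (-1.27) and the calponin gene CNN3 (-0.99) were lower. TAGLN was thus higher in CAL-62, and TAGLN2, the member, lower.

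A list of actin filament turnover genes had 39 tested in CAL-62 and 40 in BCPAP. In CAL-62 after THZ1 1 was called, beside 0.581% of all genes called higher. This was DSTN, which severs filaments as a relative of cofilin. Its values were 331 and 282 with THZ1 and 157 and 161 with DMSO (0.93, SE 0.19, limma adjusted p = 0.0408), and its call was kept in 8 of 20 alternatives. Omitting either BCPAP DMSO library or any CAL-62 library ended it (limma adjusted p 0.0625 to 0.222), and its sign turned with ribosomal protein genes (-0.03) and mitochondrially encoded genes (-0.13). The list's median was 0.63 with 38 of 39 positive. TMSB10, a thymosin that binds actin monomers, changed by 1.11 (limma adjusted p = 0.0841), and MSN, the membrane linker moesin, by 0.99 (limma adjusted p = 0.05001), neither under 0.05. In BCPAP none was called, the median was 0.27, and the largest changes were those of the capping protein gene CAPZA2 (0.55) and of DSTN (0.52). Between the lines 3 of 39 turnover genes were called higher in CAL-62, beside 6.32% of all genes, and 7 lower, beside 7.81%.

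The median regulator of actin assembly and SRF stayed near 0 in CAL-62. Of a list of such regulators, which includes ROCK1, ROCK2 and SRF, 25 genes were tested in CAL-62, where 2 fell (background 4.04%) and the median was 0.02 with 14 positive. ARHGEF2, an exchange factor that activates RHOA, had 7.60 and 4.62 with THZ1 and 14.7 and 19.9 with DMSO (-1.38, SE 0.27, limma adjusted p = 0.0358). MKL2, one of the SRF cofactors, had 2.05 and 1.92 with THZ1 and 5.30 and 5.41 with DMSO (-1.09, SE 0.23, limma adjusted p = 0.0446). Both pairs of groups were apart. Neither differed from BCPAP in a call: the difference of the responses was -1.32 for ARHGEF2 and -1.02 for MKL2 (limma adjusted p = 0.834 for both).

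The ARHGEF2 call was kept in 13 of 20 alternatives and was lost without either BCPAP DMSO library, without CAL-62 THZ1 replicate 2 and without either CAL-62 DMSO library (limma adjusted p 0.0685 to 0.23). MKL2 was called in 10 of 19, and was lost without any CAL-62 library or either BCPAP DMSO library (limma adjusted p 0.0802 to 0.236). SRF itself had 38.6 and 31.1 with THZ1 and 33.5 and 34.7 with DMSO in CAL-62 (0.02, 95% interval -0.42 to 0.47). MKL1 had 6.31 and 5.29 with THZ1 and 9.07 and 12.1 with DMSO in CAL-62 (-0.76, SE 0.25, limma adjusted p = 0.0952). SSH2, a phosphatase that activates cofilin, had a change of -1.24 in CAL-62 (limma adjusted p = 0.0697). Changes of like size in the other direction, chosen after their values were seen, were those of the small GTPase genes RHOC at 0.93 (limma adjusted p = 0.069) and RHOA at 0.90 (limma adjusted p = 0.068).

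Of the 27 regulators tested in BCPAP after THZ1, none was called, and the median was 0.07 with 16 positive. SRF changed by 0.12, MKL1 by 0.17 and MKL2 by -0.07 there. The largest changes were those of MYOCD, a muscle SRF cofactor, at -0.69, and of RND3, an atypical small GTPase, at 0.45. MYOCD was near the listing limit, with 1.35 and 1.78 with THZ1 and 2.26 and 4.17 with DMSO. Under DMSO, 1 regulator, MKL2 (0.88, limma adjusted p = 0.0446), was called higher in CAL-62 than in BCPAP, and 2 were called lower, of 25 tested and beside 6.32% and 7.81% of all genes.

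By the correlation of line-centred log2 values over the 8 libraries, the genes most like TPM1, out of 7921 with a mean of at least 5, were NCLN (r = 0.987), EXOC7 (0.972), OAF (0.972), ENTPD6 (0.956) and ACSS2 (0.955). The best placed member was ACTN1, at rank 1106 (r = 0.673). Those most like ACTG1 were TSPAN4 (0.996), the light chain gene MYL6B (0.995), ATP5I (0.994), LIG1 (0.992) and RPA3 (0.992), and of the members MYL9 came at rank 121 (0.967) and ACTN4 at rank 335 (0.946). ACTB, the other actin, had r = 0.891 with ACTG1 at rank 819. The points share libraries, treatments and replicate numbers, so these are descriptions of likeness with no test.

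Reads of near-identical copies are a limit for part of the set. In GENCODE release 29 the number of pseudogenes named for a member was 20 for ACTG1, 10 for ACTB, 8 for TPM3, 2 for ACTN4, and 1 each for TPM4 and TAGLN2. None of them had a row in the tables, and how the authors' counting assigned such reads is not given in the sources used here, so levels of ACTB, ACTG1 and TPM3 are uncertain to that extent. Antisense or opposite-strand neighbours overlap TPM1, ACTN4 and MYL9, among others, and the strand setting is not given either. Isoforms of a gene, which differ in function among the tropomyosins, were not separated in these gene-level values.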

How the data were processed

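The authors deposited RPKM-type values, 1 for each gene in each library; this unit was inferred, since the files do not name it. Bowtie2, DESeq2 and hg19 appear without roles in the submitters' processing notes, and neither annotation nor strand is given in the sources used here. Every value matched a whole read number over a whole gene length within 0.02 reads for 12715 of 12715 genes, so reads were recovered. Library totals were within 2.22% (BCPAP) and 2.12% (CAL-62) of size-factor scaling, so a change in total mRNA per cell would not show.

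limma 3.58.1 (R 4.3.3) was fitted with a mean-variance trend to log2(value + 1) of all genes with a mean of at least 1, with 4 group means and 1 shared spread over the 8 libraries. P-values are two-sided, Benjamini-Hochberg adjusted over all genes of a comparison, and called under 0.05. Fold changes on this scale understate those of low genes. The test was checked on simulated data. The simulated libraries were drawn independently, whereas deviations of same-numbered libraries here correlated. That check does not establish power for changes of the members' size.

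Members, lists and tests were chosen with earlier results of these data known. Named genes are the members, per pathway list the called genes and the 2 largest changes after THZ1, SRF, MKL1 and MKL2, and the 5 genes most like TPM1 and ACTG1. DSTN, ARHGEF2 and MKL2 were followed under the alternatives after their values were seen. Promoters are from RefSeq. GENCODE release 29 served only to name overlapping genes and to count the pseudogenes named for a member. Genes without a row, ACTA2, ACTG2 and CNN1 among them, were not analysed here. Alternatives were other pseudocounts, filters and scalings, a fit per line, a replicate block, limma-voom on recovered reads, and leaving out each library. A few listed genes are not reported here.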

Additional observations from a re-analysis of the deposited data

How the results depend on the processing

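On the deposited scale, changing the pseudocount, the low-value filter or the size factors altered no sign of a member in any comparison. No member was called after THZ1 in BCPAP, or for the difference of the responses, under any alternative run. Fitting each replicate number as a block, with labels that do not say what a number marks, called 4563 genes and 9 of 10 members (all but TPM1) after THZ1 in CAL-62, with 2503 genes higher and 2060 lower beside 66 higher and 459 lower without it. It called 4322 genes between the lines, TPM4 among them. There the block pairs no libraries across the lines and takes replicate spread out of the error, so that count may be too high. Deviations of same-numbered libraries correlated at 0.780 in BCPAP and 0.470 in CAL-62, over 2 pairs. limma-voom called 1 member in CAL-62, TPM2, and 771 genes, 175 higher and 596 lower.

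After THZ1 in CAL-62 the count of called genes was 196 at a mean of at least 5, 0 with CAL-62 fitted alone, 1506 with read sums (10 higher) and 3325 with ribosomal protein genes (4 higher), and mitochondrially encoded genes gave 3 higher and 471 lower. Leaving out a library gave 0 to 833 genes and 0 to 1 members, the 1 being TPM2. The count was 814 without BCPAP THZ1 replicate 1, 833 without BCPAP THZ1 replicate 2, 151 and 149 without BCPAP DMSO replicates 1 and 2, 259 without CAL-62 THZ1 replicate 1, and 9 and 0 without CAL-62 DMSO replicates 1 and 2. Between the lines mitochondrially encoded genes left 115 genes and 1 member, TPM2, called. Ribosomal protein genes gave 780 higher and 285 lower and read sums 948 higher and 736 lower, beside 673 and 832 on the deposited scale. Leaving out a library gave 275 to 1897 genes and 2 to 4 members. Omitting a DMSO library gave 308 and 275 (BCPAP replicates 1 and 2) and 396 and 283 (CAL-62). In BCPAP 2 genes were called with mitochondrially encoded genes, and 0 to 1 when a library was left out. For the difference of the responses 1 gene was called with a pseudocount of 0.1, and 1 with mitochondrially encoded genes.

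Signs turned under 4 scalings. Upper-quartile scaling put TPM2 at -0.031, ACTB at -0.027 and ACTG1 at -0.017 in BCPAP. Read sums put TPM1 at -0.010 in CAL-62. In BCPAP they put TPM2 at -0.10, ACTB at -0.11, ACTG1 at -0.098 and MYL9 at -0.036, and between the lines TPM3 at 0.0062, ACTB at 0.069 and ACTN4 at 0.073. Ribosomal protein genes gave negative changes in CAL-62 for TPM1 (-0.545), TPM2 (-0.13), TPM3 (-0.14), TPM4 (-0.25), ACTB (-0.18), ACTG1 (-0.29), ACTN1 (-0.32), ACTN4 (-0.11), TAGLN2 (-0.077), MYL9 (-0.083) and DSTN (-0.032). In BCPAP the same scale gave -0.15 (TPM2), -0.029 (TPM4), -0.17 (ACTB), -0.16 (ACTG1), -0.047 (ACTN1) and -0.094 (MYL9). Differences of the responses were then -0.27 (TPM1), -0.28 (TPM3), -0.225 (TPM4), -0.0091 (ACTB), -0.13 (ACTG1), -0.27 (ACTN1), -0.14 (ACTN4) and -0.16 (TAGLN2). Between the lines TPM3 was at 0.24, ACTB at 0.31, ACTN1 at 0.051 and ACTN4 at 0.31.

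Mitochondrially encoded genes gave, in CAL-62, -0.63 (TPM1), -0.22 (TPM2), -0.23 (TPM3), -0.35 (TPM4), -0.27 (ACTB), -0.38 (ACTG1), -0.41 (ACTN1), -0.20 (ACTN4), -0.17 (TAGLN2), -0.18 (MYL9) and -0.13 (DSTN). In BCPAP they gave -0.30 (TPM2), -0.014 (TPM3), -0.19 (TPM4), -0.32 (ACTB), -0.31 (ACTG1), -0.20 (ACTN1), -0.13 (ACTN4), -0.070 (TAGLN2) and -0.25 (MYL9). Differences of the responses were -0.20 (TPM1), -0.21 (TPM3), -0.16 (TPM4), -0.070 (ACTG1), -0.21 (ACTN1), -0.077 (ACTN4) and -0.10 (TAGLN2), and between the lines TPM3 was at 0.21, ACTB at 0.28, ACTN1 at 0.019 and ACTN4 at 0.28. Which scale is closest to RNA per cell was not tested.

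Leaving out a library also turned the sign of changes that had not passed the test. In BCPAP they ranged from -0.12 to 0.045 (TPM1), -0.075 to 0.19 (TPM2), -0.22 to 0.38 (ACTB), -0.28 to 0.45 (ACTG1), -0.12 to 0.66 (ACTN4) and -0.47 to 0.77 (MYL9). Between the lines they ranged from -0.29 to 0.065 (TPM3), -0.18 to 0.076 (ACTB) and -0.33 to 0.23 (ACTN4). Fitted on CAL-62 alone, neither DSTN, ARHGEF2 nor MKL2 was called (limma adjusted p 0.0842 to 0.0909). Whether depth or the spread between 2 libraries limits these results more was not tested.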
